A study of Mus musculus with 12 samples.

Results

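A set of 10 genes that encode cytokines, cytokine receptor chains or a cytokine trap were followed in cultured mouse oligodendrocyte precursor cells (OPCs): the ligands Csf1, Lif, Il6, Il15, Il33, Tnfsf10 and Tnfsf13b, the receptor chains Il15ra and Il12rb1, and the trap Il18bp. They were chosen by gene symbol out of the 55536 genes in the files. The rule itself used no measured value, but the choice was made with earlier results of these data known. The 12 RNA-seq libraries fall into 4 groups of 3: untreated OPCs (Ctr), OPCs given EPZ011989, an inhibitor of the methyltransferase EZH2 (EZH2i), OPCs given IFN-γ, and OPCs given both (IFN-γ+EZH2i). EZH2i was used at 1.5 μM for 4 days and renewed every 48 h. IFN-γ was used at 100 ng/ml for 6 h after those days, together with fresh inhibitor in the combined group. All groups, Ctr included, were kept in proliferation medium with PDGFaa and bFGF. The cells came from brains of pups at postnatal day 4 to 6, with several pups pooled, and were taken by sorting for Sox10-driven GFP or with beads against CD140a (PDGFRα); which of these was used is not given per library. The replicates came from different litters. The labels also name EAE as the mouse model, although these cells were grown from pups' brains and treated in the dish.

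Cytokines act at short range by binding receptor chains on neighbouring cells or on the cell that made them. IFN-γ signals through the kinases JAK1 and JAK2, and its target genes often carry palindromic GAS elements or ISRE elements, the latter bound by IRF factors. EZH2 is the enzyme of the Polycomb complex that places the repressive H3K27me3 mark on histones. Some secreted or soluble proteins bind a cytokine without passing on its signal. Such a trap is the IL-18 binding protein, encoded by Il18bp, and a soluble decoy or carrier can also be made from a receptor chain, as from Il15ra and Il6ra. CSF1 is the growth factor of microglia and macrophages and, in the brain, glial cells are one of its sources.

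The promoters of 8 of the 10 genes are in the RefSeq set of promoters used here (GRCm38.p6), each as a window of 250 bases before to 50 bases after an annotated start. These 8 genes had 11 windows, and Il15 and Il12rb1 had no entry. The windows were searched on both strands for the GAS letters TTCNNNGAA and for the ISRE core GAAANNGAA, 2 motifs that can overlap. Of the 32851 windows of that length in the set, 8.30% held the GAS letters and 8.56% the ISRE core. None of the 11 windows held the GAS letters, and 3 of the 11 held the ISRE core: both windows of Il15ra and one of the windows of Tnfsf13b. The stretches are shown because Il15ra had 2 clusters of annotated starts whose transcripts are given separately further on, and because the IFN-γ groups of both genes lay above the others; capitals mark the ISRE core, which in the upstream stretch of Il15ra reads on the minus strand. The match lies 146 bases before the upstream start of Il15ra, 35 bases before the start of the downstream transcript Il15ra-201 and 16 bases before the start of Tnfsf13b-203. In the downstream window of Il15ra, however, the match lies 30 bases after the start on which that window is placed. The printed downstream stretch ends where that window ends, which is before the start of Il15ra-201. The stretch before the start of Tnfsf10, the gene with the largest difference between groups, is printed beside them and held neither motif. A match is only a description of the letters.
Il15ra, upstream start, chr2:11705140-11705289, plus strand: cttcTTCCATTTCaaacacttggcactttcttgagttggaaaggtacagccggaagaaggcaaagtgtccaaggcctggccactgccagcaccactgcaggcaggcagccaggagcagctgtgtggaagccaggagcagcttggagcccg
Il15ra, downstream start, chr2:11705732-11705761, plus strand: aagcaaaagcGAAAGCGAAtactccttagc
Tnfsf13b, chr8:10006603-10006632, plus strand: atcttacaaaaactGAAAGTGAAatgcgga
Tnfsf10, chr3:27316878-27317027, plus strand: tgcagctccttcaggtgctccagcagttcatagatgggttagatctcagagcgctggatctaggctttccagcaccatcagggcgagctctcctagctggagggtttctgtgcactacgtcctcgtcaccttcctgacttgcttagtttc

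Estimated read counts were summed per gene, and library totals lay between 17403896 (Ctr replicate 2) and 66546017. Levels are given as TMM-normalized CPM, the share of a library's counts on a common scale, and as deposited TPM values, which are corrected for transcript length, where genes are compared with each other. Differences were tested with edgeR's quasi-likelihood test over all 12 libraries, with Benjamini-Hochberg adjustment over the 18995 genes that passed a filter on low counts; a gene was called at an adjusted p under 0.05, and log2 fold changes are given with their standard error. OPC marker RNA was present in every library: the 8 OPC markers summed to 4327 to 8443 CPM. Pdgfra and Cspg4 were called lower with IFN-γ. Marker sums do not give the share of other cells in these cultures. Of 14 markers of microglia and macrophages, 8 to 10 per group had at most 3 counts in each library, including C1qa in all groups. The 7 astrocyte markers summed to 1338 to 2880 CPM and none was called in any comparison. Of 12 genes of the IFN-γ pathway, 10 were called higher with IFN-γ, for example Irf1 (log2 fold change 6.31 ± 0.16 without and 6.60 ± 0.16 with EZH2i). Ezh2 itself, which EPZ011989 inhibits as a protein, was not called in any comparison.

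Of the 10 genes, 9 passed the filter, and 7 of these 9 were called higher in IFN-γ versus Ctr, where 6.65% of all genes tested were called higher. These were Csf1, Il33, Tnfsf10, Tnfsf13b, Il15ra, Il12rb1 and Il18bp. In IFN-γ+EZH2i versus EZH2i the 7 called genes were these again, with 5.90% of all genes called higher. None of the 9 was called lower. In bulk RNA, a change in the share of cells that carry a transcript and in its amount per cell cannot be told apart. Their median log2 fold change was 2.14 without and 2.11 with EZH2i, where the median of all genes was 0.00 in both; Tnfsf10, whose fitted fold change is no bound, counts in these medians only by its rank. In these 7 genes, all 3 IFN-γ libraries lay above all 3 libraries without IFN-γ in both settings, which was so for 13.5% of all genes tested without EZH2i and for 11.8% with it. Il15 and Lif were not called in this fit, which does not use the replicate numbers. A plot of the level of each gene in the 12 libraries follows.

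**Figure D1:**
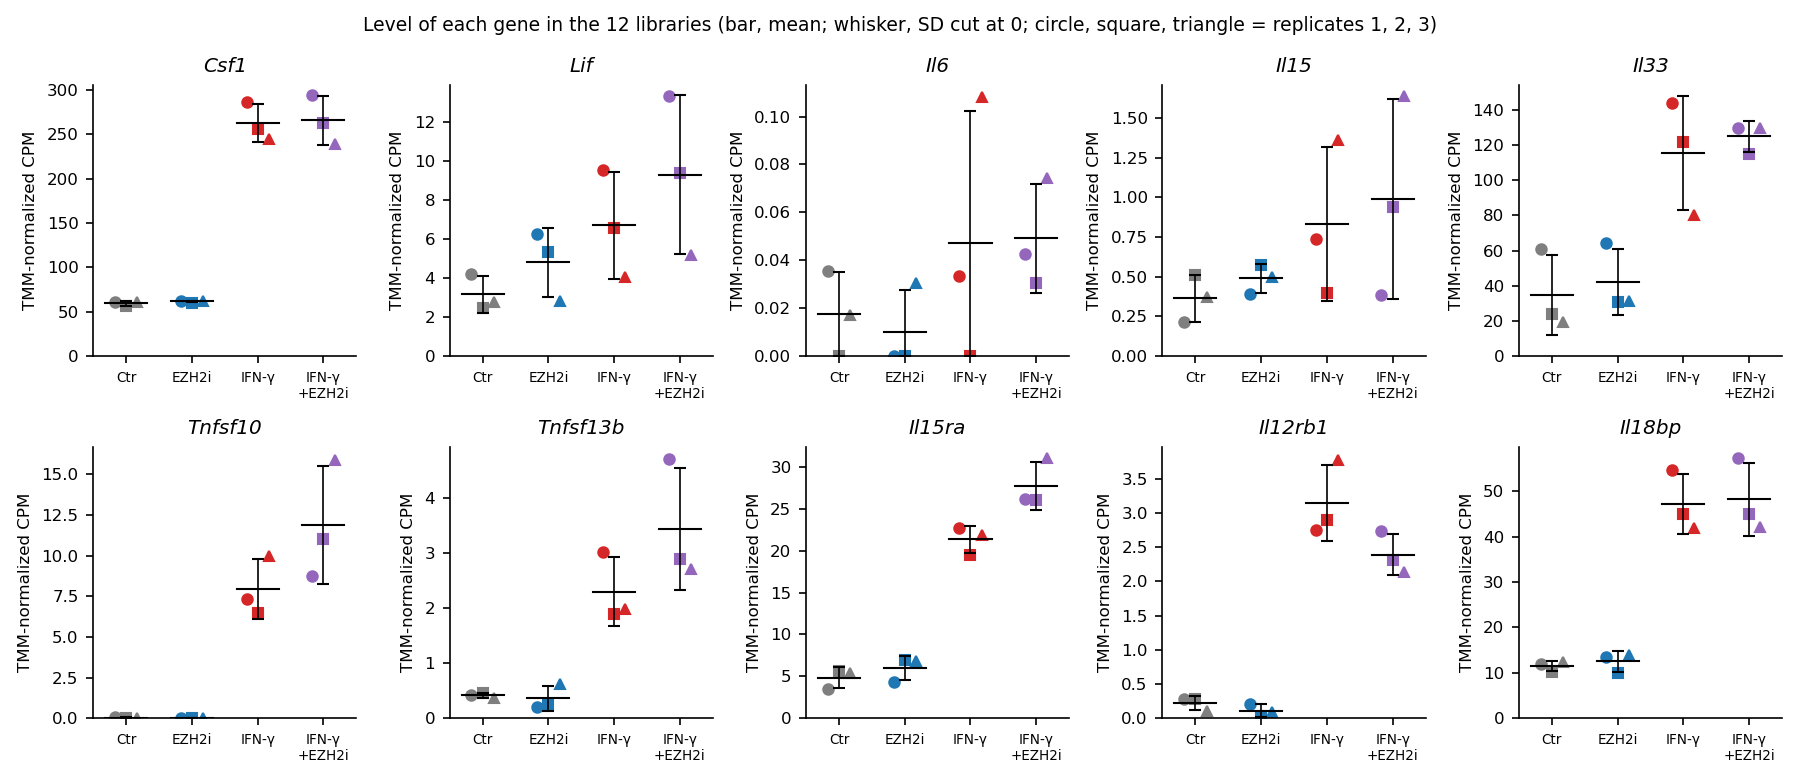
TMM-normalized CPM (linear axis from 0, a scale of its own for each gene) in Ctr, EZH2i, IFN-γ and IFN-γ+EZH2i; symbols are the 3 replicates, horizontal bars the mean and whiskers the SD, cut at 0. For Csf1, Tnfsf10, Tnfsf13b, Il33, Il15ra, Il12rb1 and Il18bp, both groups with IFN-γ lie above both groups without it, whereas the groups overlap for Lif, Il6 and Il15.

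Csf1 (chr3:107741048-107760469, minus strand, GRCm38) was at 61.0, 56.4 and 61.1 CPM in Ctr, at 61.9, 60.3 and 62.3 in EZH2i, at 286, 256 and 245 in IFN-γ and at 294, 263 and 239 in IFN-γ+EZH2i. The ranges with and without IFN-γ were far apart, and those with and without EZH2i overlapped. The log2 fold change with IFN-γ was 2.14 ± 0.11 without EZH2i (edgeR adjusted p = 7.43e-08, 4.41-fold by means) and 2.11 ± 0.11 with it (edgeR adjusted p = 7.71e-08, 4.32-fold). Most counts of Csf1, 85.8% to 92.1% per library, were assigned to the transcript Csf1-201. Of its receptor and its other ligand, Csf1r was at 0.0855 to 0.456 CPM and Il34 at a group mean of 3.39 to 6.87 CPM. Neither was called, and Il34 was called lower in IFN-γ+EZH2i versus EZH2i only with a replicate block, a fit that compares libraries of the same replicate number (edgeR adjusted p = 0.0468). Per transcript length, Csf1 stood at a mean of 12.3 TPM in Ctr and 60.6 in IFN-γ, against 0.0418 and 0.0601 TPM for Csf1r, so that ligand RNA was present with very little RNA of the receptor.

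The TNF family ligands had the lowest TPM without IFN-γ among the called ligands. Tnfsf10 (chr3:27317028-27342427, plus strand) encodes TRAIL, which can trigger cell death through its receptors. It had 2, 0 and 0 counts in Ctr and 0, 0 and 2 in EZH2i, where the 3 counts that an observed 0 allows correspond to 0.0455 to 0.169 CPM. With IFN-γ it had 219, 243 and 649 counts (7.34, 6.47 and 10.0 CPM), and with both it had 205, 363 and 638 (8.76, 11.0 and 15.9 CPM). Without IFN-γ, every library was thus at or below the floor of 3 counts, and with IFN-γ every library was far above it. Taken against a floor of 3 counts per library, Tnfsf10 was at least 72.9-fold higher in IFN-γ than in Ctr (edgeR adjusted p = 3.69e-06) and at least 152-fold higher in IFN-γ+EZH2i than in EZH2i (edgeR adjusted p = 1.26e-06). Tnfrsf10b, the mouse TRAIL death receptor, was present in every library at 5.08 to 12.9 CPM. Per transcript length, Tnfsf10 reached a mean of 1.28 TPM in IFN-γ and 1.70 in IFN-γ+EZH2i, against 1.84 and 2.74 TPM for Tnfrsf10b. Tnfrsf10b was not called with IFN-γ, and its 3 libraries with EZH2i lay above the 3 without, both with and without IFN-γ. In EZH2i versus Ctr its log2 fold change was 0.75 ± 0.20, which edgeR did not call without a block (adjusted p = 0.201), whereas DESeq2 (adjusted p = 0.0396) and edgeR with the replicate block (adjusted p = 0.0111, although the numbers do not pair Ctr by the rule used) called it. In IFN-γ+EZH2i versus IFN-γ it was 0.71 ± 0.20, with adjusted p = 0.272 by edgeR, 0.0488 by DESeq2 and 0.0119 by edgeR with the block.

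Tnfsf13b (chr8:10006467-10039072, plus strand) encodes BAFF, a survival factor of B cells. It was at 0.426, 0.452 and 0.373 CPM in Ctr, at 0.214, 0.247 and 0.622 in EZH2i, at 3.02, 1.89 and 1.99 in IFN-γ and at 4.70, 2.89 and 2.71 in IFN-γ+EZH2i. The lowest IFN-γ library was above the highest library without IFN-γ. These levels rest on 6 to 41 counts per library without IFN-γ and 71 to 129 with it. Its log2 fold change was 2.47 ± 0.42 without EZH2i (edgeR adjusted p = 0.00239) and 3.15 ± 0.42 with it (edgeR adjusted p = 0.000326). The ISRE core printed above lies just before the start of the transcript Tnfsf13b-203. Transcripts from that start and the starts close to it carried 59.9% to 74.4% of the gene's counts in IFN-γ and 46.8% to 70.4% in IFN-γ+EZH2i. Its receptors are largely those of B cells: Tnfrsf13b and Tnfrsf17 did not pass the filter, and Tnfrsf13c, encoding the BAFF receptor, passed it but was not called (with the block it was called higher in IFN-γ+EZH2i versus EZH2i, edgeR adjusted p = 0.0385).

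Il33 (chr19:29925114-29960718, plus strand) encodes a nuclear cytokine that is released from damaged cells and is known from oligodendrocytes and astrocytes. It was at 60.7, 23.8 and 19.6 CPM in Ctr, at 64.1, 31.0 and 31.5 in EZH2i, at 144, 122 and 80.4 in IFN-γ and at 130, 115 and 130 in IFN-γ+EZH2i. Replicate 1 of Ctr and of EZH2i held more than any other library without IFN-γ, and still less than the lowest IFN-γ library. Il33 had a log2 fold change of 1.73 ± 0.41 in IFN-γ versus Ctr (edgeR adjusted p = 0.0205) and 1.57 ± 0.41 in IFN-γ+EZH2i versus EZH2i (edgeR adjusted p = 0.0347). This was the least firm of the 7 calls. In IFN-γ versus Ctr the call was lost without Ctr replicate 2 (edgeR adjusted p = 0.110), Ctr replicate 3 (0.0767), IFN-γ replicate 1 (0.0649) or IFN-γ replicate 2 (0.0606), and in a fit of only the 6 libraries compared (0.0548). In IFN-γ+EZH2i versus EZH2i it was lost without EZH2i replicate 2 (0.147) or 3 (0.137), IFN-γ+EZH2i replicate 1 (0.0784), 2 (0.0742) or 3 (0.0905), or IFN-γ replicate 2 (0.0513). With the replicate block, the adjusted p of the second comparison was 0.000282. The astrocyte marker sum was highest in replicate 3 of every group (2222, 2649, 2450 and 2880 CPM in the order Ctr, EZH2i, IFN-γ and IFN-γ+EZH2i), where Il33 was not highest other than in a near tie in IFN-γ+EZH2i; its part in the level of Il33 was not tested. Il1rl1, which encodes the IL-33 receptor ST2, had at most 3 counts in every library, whereas Il1rap, the shared second chain, was well detected and not called.

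Il15 and Lif were not called in the main fit, whereas Lif was called with the replicate block. Il15 (chr8:82331632-82403222, minus strand) encodes a cytokine that is presented to natural killer and T cells on IL-15Rα. Il15 was at 0.213, 0.508 and 0.373 CPM in Ctr, at 0.393, 0.575 and 0.501 in EZH2i, at 0.737, 0.400 and 1.36 in IFN-γ and at 0.385, 0.942 and 1.64 in IFN-γ+EZH2i. Without EZH2i, 1 library with IFN-γ (0.400 CPM) lay within the range of Ctr, and with EZH2i, 1 library (0.385 CPM) lay below the lowest library of EZH2i; the others lay above. The log2 fold change with IFN-γ was 1.24 ± 0.57 without EZH2i (edgeR adjusted p = 0.271) and 1.03 ± 0.55 with it (edgeR adjusted p = 0.394; 0.175 with the replicate block). These levels rest on 6 to 88 counts per library.

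Lif (chr11:4257557-4272514, plus strand) encodes leukemia inhibitory factor, an IL-6 family cytokine that acts on oligodendrocytes through LIFR and gp130. Lif was at 4.22, 2.48 and 2.78 CPM in Ctr, at 6.26, 5.32 and 2.84 in EZH2i, at 9.52, 6.55 and 4.04 in IFN-γ and at 13.3, 9.39 and 5.17 in IFN-γ+EZH2i. Replicate 1 was the highest of its group in all 4 groups, and groups overlapped, although in each replicate number the order was Ctr, EZH2i, IFN-γ and IFN-γ+EZH2i from low to high. How many of all genes had the same order in each replicate number was not counted. The log2 fold change with IFN-γ was 1.07 ± 0.42 without EZH2i (edgeR adjusted p = 0.174) and 0.95 ± 0.41 with it (edgeR adjusted p = 0.246). With a block for replicate number, the second was 0.93 (edgeR adjusted p = 0.00307) and Lif was the 8th of the 9 genes to be called, where the block called 11.0% of all genes higher. Its receptor chains Lifr and Il6st, which encodes the shared signaling chain gp130, were called higher with IFN-γ. Lifr had a log2 fold change of 1.28 ± 0.34 without EZH2i and 1.53 ± 0.34 with it (edgeR adjusted p = 0.0338 and 0.0137), and Il6st one of 0.52 ± 0.12 and 0.57 ± 0.12 (edgeR adjusted p = 0.0127 and 0.00755). In IFN-γ versus Ctr the call of Lifr was lost without Ctr replicate 1 (edgeR adjusted p = 0.0963) or 3 (0.0658), IFN-γ replicate 2 (0.110) or 3 (0.0966), or in a fit of only the 6 libraries compared (0.0553). With EZH2i in both groups it was lost without EZH2i replicate 1 (0.0535) or IFN-γ+EZH2i replicate 3 (0.0525). The call of Il6st was lost in IFN-γ versus Ctr without Ctr replicate 1 (0.0712) or IFN-γ replicate 3 (0.0521), and in IFN-γ+EZH2i versus EZH2i in the fit of the 6 libraries (0.0507).

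Il6 (chr5:30013114-30019981, plus strand) did not pass the filter. It had 1, 0 and 1 counts in Ctr, 0, 0 and 2 in EZH2i, 1, 0 and 7 in IFN-γ and 1, 1 and 3 in IFN-γ+EZH2i, so that only 1 library was above the floor of 3 counts and no difference was detectable at this depth. Without the filter its adjusted p with IFN-γ was 0.755. Its receptor chain Il6ra, by contrast, was called higher with IFN-γ (log2 fold change 2.51 ± 0.32 without and 2.27 ± 0.31 with EZH2i, edgeR adjusted p = 0.000262 and 0.000476), from 1.29 to 2.34 CPM in Ctr to 6.70 to 13.7 in IFN-γ. Per transcript length, Il6ra remained well below Il6st, with a mean of 1.62 TPM against 45.5 TPM in IFN-γ.

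Of the receptor chains, Il15ra (chr2:11705290-11734317, plus strand) encodes IL-15Rα, which binds and presents IL-15. Il15ra was at 3.44, 5.70 and 5.39 CPM in Ctr, at 4.33, 6.90 and 6.82 in EZH2i, at 22.7, 19.5 and 21.8 in IFN-γ and at 26.1, 26.0 and 31.0 in IFN-γ+EZH2i. The groups with IFN-γ were above those without, and all 3 libraries with both agents were above all 3 with IFN-γ alone. With IFN-γ, the log2 fold change was 2.14 ± 0.23 without EZH2i (edgeR adjusted p = 4.78e-05) and 2.20 ± 0.22 with it (edgeR adjusted p = 3.41e-05). Per transcript length, Il15ra exceeded Il15 in every library, by a mean of 11.6 times in Ctr and 21.6 times in IFN-γ. Il2rb and Il2rg, the chains that pass on the IL-15 signal, did not pass the filter.

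The counts of Il15ra were not spread evenly over its annotated starts. Transcripts that begin at chr2:11705290-11705443 (upstream start) held 70.7%, 35.6% and 64.7% of the gene's counts in Ctr and 46.1%, 69.6% and 63.5% in EZH2i. Those that begin at chr2:11705712-11705848 (downstream start) held 18.8% to 41.3% in Ctr and 26.4% to 33.6% in EZH2i. With IFN-γ the downstream start held 68.0%, 59.6% and 53.3%, and with both agents 66.7%, 60.7% and 60.5%. The shares of the downstream start with and without IFN-γ did not overlap. In levels, the downstream start went from a mean of 1.61 CPM in Ctr to 12.9 in IFN-γ and the upstream start from 2.65 to 5.26 CPM. Of the downstream counts in Ctr (18.2, 41.8 and 108.3), the retained-intron transcript Il15ra-208 held 12.9, 41.8 and 99.5. In IFN-γ it held 206.6, 177.5 and 423.9 of 459.7, 437.2 and 752.6. The coding transcript Il15ra-201 held 0.0, 0.0 and 8.8 counts in Ctr and 115.4, 216.6 and 226.1 in IFN-γ. The ISRE core printed for the downstream start lies before the start of Il15ra-201 but after the first of the starts in that cluster, and the other core lies before the upstream start. These shares are Salmon's split of reads between transcripts that share most of their exons, so they are a description and were not tested.

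Il12rb1 (chr8:70808449-70821424, plus strand) encodes the chain that the receptors of IL-12 and IL-23 share. It had 8, 5 and 6 counts in Ctr (0.284, 0.282 and 0.102 CPM) and 6, 1 and 6 in EZH2i (0.214, 0.0274 and 0.0911 CPM). With IFN-γ it had 82, 109 and 245 counts (2.75, 2.90 and 3.78 CPM), and with both agents 64, 76 and 86 (2.73, 2.31 and 2.14 CPM). Every library with IFN-γ was thus well above every library without it. Its log2 fold change was 3.94 ± 0.49 without EZH2i (edgeR adjusted p = 0.000213) and 4.49 ± 0.52 with it (edgeR adjusted p = 0.000104). The chains that complete the receptors, Il12rb2 and Il23r, and the ligand genes Il12a, Il12b and Il23a did not pass the filter. Il12rb1 was therefore seen with hardly any RNA of its partner chains.

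The trap gene Il18bp (chr7:102014885-102018690, minus strand) was at 11.9, 10.3 and 12.5 CPM in Ctr, at 13.6, 9.97 and 14.0 in EZH2i, at 54.6, 45.0 and 41.8 in IFN-γ and at 57.4, 45.0 and 42.2 in IFN-γ+EZH2i. The lowest library with IFN-γ held more than any library without it. With IFN-γ, the log2 fold change was 2.02 ± 0.18 without EZH2i (edgeR adjusted p = 1.05e-05) and 1.94 ± 0.18 with it (edgeR adjusted p = 1.42e-05). The exons at the end of Il18bp overlap those of Numa1 on the opposite strand, and the strand setting of the quantification is not given in the sources used here, so reads of the overlap cannot be assigned with certainty.

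The cytokine that this trap binds was itself transcribed in these cells. Il18 was at 11.5, 11.5 and 13.3 CPM in Ctr, at 9.72, 10.2 and 13.1 in EZH2i, at 13.2, 11.5 and 17.5 in IFN-γ and at 13.5, 14.6 and 18.1 in IFN-γ+EZH2i. It was not called in IFN-γ versus Ctr (log2 fold change 0.21 ± 0.19, edgeR adjusted p = 0.646), nor in IFN-γ+EZH2i versus EZH2i (0.49 ± 0.19, edgeR adjusted p = 0.192), where it was called with the replicate block (edgeR adjusted p = 0.00607). Replicate 3 had the highest Il18 in each group, as it did for the astrocyte marker sum given with Il33; the part of astrocytes in this was not tested. Per transcript length, the ratio of Il18bp to Il18 was 0.427, 0.340 and 0.329 in Ctr and 0.632, 0.372 and 0.434 in EZH2i. With IFN-γ it was 2, 1.73 and 1.02, and with both agents 2.36, 1.42 and 1.06. The trap RNA was thus below the ligand RNA in all libraries without IFN-γ and above it in all libraries with IFN-γ. Of the IL-18 receptor chains, Il18r1 had no counts in any library, and Il18rap was called higher with IFN-γ, from at most 5 counts per library without IFN-γ to 10 to 43 with it. In IFN-γ versus Ctr its log2 fold change was 2.70 ± 0.67 (edgeR adjusted p = 0.0255), and the call was lost without Ctr replicate 1 (0.0545), 2 (0.0742) or 3 (0.0918), without IFN-γ replicate 2 (0.0601) or 3 (0.0931), or with length-scaled TPM (0.0669). Taken against the floor of 3 counts per library, Il18rap was at least 9.9-fold higher in IFN-γ+EZH2i than in EZH2i (edgeR adjusted p = 0.00114).

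The make-up of Il18bp also differed. Il18bp-202, which starts farthest upstream (chr7:102018690), held 46.8%, 59.2% and 58.8% of the counts in Ctr and 35.2% to 53.3% in EZH2i, and 23.9% to 32.6% in IFN-γ and 20.7% to 27.5% in IFN-γ+EZH2i. The remaining transcripts, from starts near chr7:102018155, went from a mean of 5.23 CPM in Ctr to 33.6 in IFN-γ, whereas Il18bp-202 went from 6.35 to 13.5 CPM. The shares with and without IFN-γ did not overlap, at 35.2% for the lowest library without it and 32.6% for the highest with it. As for Il15ra, these shares are Salmon's split of reads between transcripts, so they are a description and were not tested. For Il33, in contrast, the upstream start (chr19:29925114) held 36.7% to 67.6% of the counts in Ctr and 36.2% to 65.4% in IFN-γ, and both starts were higher on average with IFN-γ. Libraries of one group differed more in this share for Il33 than did the groups.

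**Figure D2:**
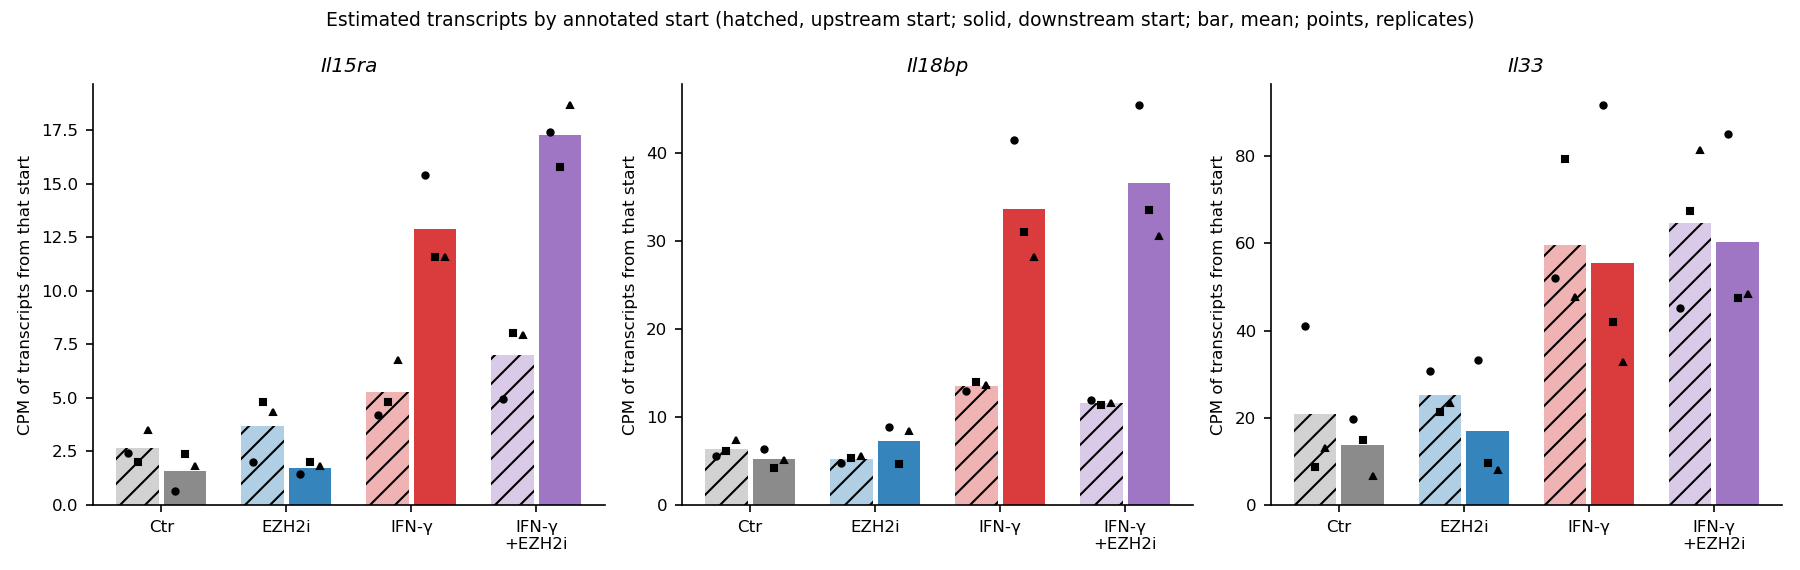
CPM of the transcripts that begin at each annotated start (linear axis) of Il15ra, Il18bp and Il33 in the 4 groups; bars are means of 3 libraries, hatched for the upstream start and solid for the downstream start, and points are replicates 1 (circle), 2 (square) and 3 (triangle). The downstream start of Il15ra and of Il18bp is the higher one with IFN-γ, with means of 12.9 and 33.6 CPM, while both starts of Il33 have similar means with IFN-γ (59.7 and 55.5 CPM).

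EZH2i alone moved none of these genes past the threshold. In EZH2i versus Ctr, 0 of the 9 genes were called by edgeR (0.405% of all genes were), 0 had an unadjusted p under 0.05, and 0 were called by DESeq2. The largest fitted values were a log2 fold change of -0.95 ± 0.59 for Il12rb1 (edgeR adjusted p = 0.887), at 1 to 8 counts per library, and 0.59 ± 0.42 for Lif (edgeR adjusted p = 0.931). None of the 9 genes had groups without overlap in this comparison, where 12.7% of all genes tested did. Csf1 and Il18bp had the smallest errors, with log2 fold changes of 0.05 ± 0.11 and 0.11 ± 0.18. Marker sums of other cells differed with EZH2i. None of the neuronal, endothelial, oligodendrocyte or OPC markers tested was called by edgeR in EZH2i versus Ctr or IFN-γ+EZH2i versus IFN-γ. Neuronal markers summed to 16.5 to 20.6 CPM in Ctr and 31.7 to 52.5 in EZH2i, and endothelial ones to 9.43 to 17.2 and 19.6 to 35.5. Most of the neuronal sum was Snap25 (means of 11.1 and 26.2 CPM), and the other neuronal markers were higher as well. Most of the endothelial sum was Flt1 (12.3 and 25.4 CPM). At low levels, Cldn5, Pecam1 and Cdh5 were higher and Tek was lower. Oligodendrocyte markers summed to 1892 to 2325 CPM in Ctr and 1112 to 1641 in EZH2i, and to 1765 to 2097 in IFN-γ and 1074 to 1615 in IFN-γ+EZH2i. OPC markers summed to 8145 to 8443 CPM in Ctr and 6723 to 7147 in EZH2i, and to 5345 to 7316 in IFN-γ and 4327 to 5310 in IFN-γ+EZH2i. The part of these shifts in the values with EZH2i was not tested.

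With IFN-γ present, EZH2i gave no call in the planned fits, but 3 in a paired fit added later. Same-numbered libraries of the groups with IFN-γ pair by the rule used, and the main fit does not use this pairing. In IFN-γ+EZH2i versus IFN-γ, 0 of the 9 genes were called by edgeR (0.353% of all genes), 0 had an unadjusted p under 0.05, 0 were called by DESeq2, and 0 with the replicate block in the fit of all libraries (3.94% of all genes). Groups did not overlap for Il15ra, which was higher with both agents (log2 fold change 0.38 ± 0.21, edgeR adjusted p = 0.896), and for Il12rb1, which was lower (-0.40 ± 0.40, edgeR adjusted p = 0.999), at 2 of 9 against 10.3% of all genes tested. Tnfsf10 and Tnfsf13b each had a log2 fold change of 0.58 ± 0.37 (edgeR adjusted p = 0.963 for each), and in both genes each replicate was higher with both agents than the same-numbered one with IFN-γ alone. The share of all genes for which this was so was not counted, so this agreement is only a description. In a fit of only these 6 libraries with the replicate block, which was added after the data had been seen, Il15ra (0.37 ± 0.08, edgeR adjusted p = 0.0310), Tnfsf10 (0.56, edgeR adjusted p = 0.0305) and Lif (0.44, edgeR adjusted p = 0.0494) were called, at 9.55% of all genes. The interaction, which asks whether the effect of IFN-γ differed with EZH2i, was called for 0 of the 9 genes by edgeR and by DESeq2, with 0 of the 9 at an unadjusted p under 0.05. It was called for 0% of all genes. Its log2 estimates were -0.03 ± 0.15 for Csf1, 0.69 ± 0.58 for Tnfsf13b, 0.55 ± 0.70 for Il12rb1 and 0.91 ± 1.50 for Tnfsf10. With errors of this size, the lack of a call does not show that the effects of IFN-γ were equal.

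**Figure D3:**
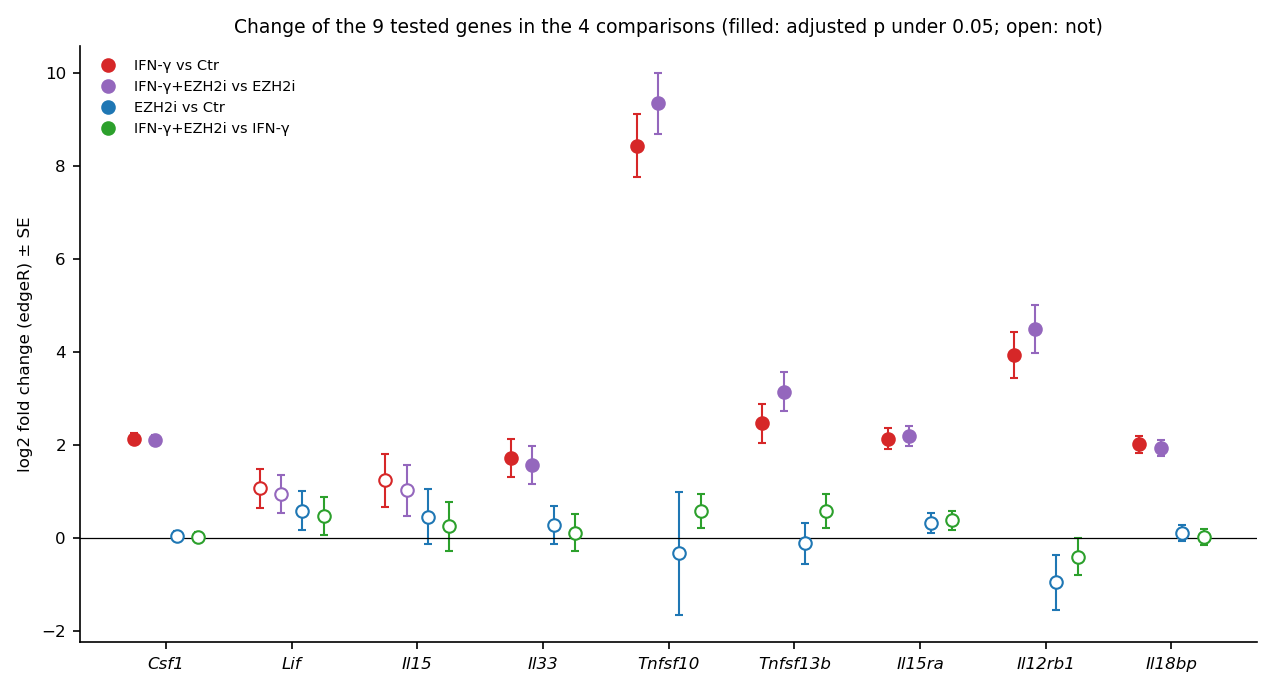
log2 fold change with its standard error (edgeR, linear axis) of the 9 tested genes in IFN-γ versus Ctr (red), IFN-γ+EZH2i versus EZH2i (purple), EZH2i versus Ctr (blue) and IFN-γ+EZH2i versus IFN-γ (green); filled points were called. The 2 comparisons of IFN-γ are filled for 7 genes and no point of the 2 comparisons of EZH2i is filled; the fitted values of Tnfsf10 with IFN-γ depend on 2 counts without it and are not bounds.

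Among 24 direct partners of these genes (receptor chains, second ligands and decoy receptors), 13 passed the filter. Of these, 4 were called higher with IFN-γ in each setting (Il6ra, Il6st, Lifr and Il18rap) and 0 lower by edgeR, and none was called with EZH2i by edgeR without the block, the exception by DESeq2 and with the block being Tnfrsf10b. Of all genes tested, edgeR without the block called 6.65% higher in IFN-γ versus Ctr and 5.90% in IFN-γ+EZH2i versus EZH2i. With the replicate block, 6 partners were called higher and 1 lower in IFN-γ+EZH2i versus EZH2i. Of all 18995 genes, 2084 were called higher and 1577 lower there. Of 56 other cytokine genes listed, 53 were in the annotation and 15 passed the filter. Of the 15, Il7, Il21, Kitl and Flt3l were called higher with IFN-γ in both settings, 0 were called lower and none was called with EZH2i (edgeR without the block). With the block, Clcf1 was also called higher and Il17d lower in IFN-γ+EZH2i versus EZH2i (edgeR adjusted p = 0.0370 and 0.00250). The calls of Kitl and Flt3l depended on single libraries. In IFN-γ versus Ctr each was lost in 4 of 12 fits that left out 1 library: Kitl without Ctr replicate 1 or 2 or IFN-γ replicate 2 or 3 (edgeR adjusted p of 0.0513 to 0.118), and Flt3l without Ctr replicate 1 or 3 or IFN-γ replicate 1 or 2 (0.0658 to 0.0857). In IFN-γ+EZH2i versus EZH2i, Kitl was lost in 4 of 12, without EZH2i replicate 1 or 2, IFN-γ+EZH2i replicate 3 or Ctr replicate 2 (0.0558 to 0.157), and Flt3l in 7 of 12, without any EZH2i replicate, IFN-γ+EZH2i replicate 1 or 2, IFN-γ replicate 2 or Ctr replicate 3 (0.0513 to 0.147). In the fit of only the 6 libraries compared, both were lost in the latter comparison (0.0564 and 0.0905), as was Flt3l with length-scaled TPM (0.0594). Il21, a cytokine of helper T cells, had 0, 0 and 2 counts in Ctr and 31, 51 and 71 in IFN-γ. Il7, a growth factor of lymphocytes, had 5, 0 and 10 counts in Ctr and 31, 33 and 107 in IFN-γ. None of the other trap genes listed, among them Il1rn and Il1r2, passed the filter. The decoy receptor genes Tnfrsf22, Tnfrsf23 and Tnfrsf11b, counted among the partners, passed it but were not called by edgeR without the block. With the block, Tnfrsf23 was called higher in IFN-γ versus Ctr.

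**Figure D4:**
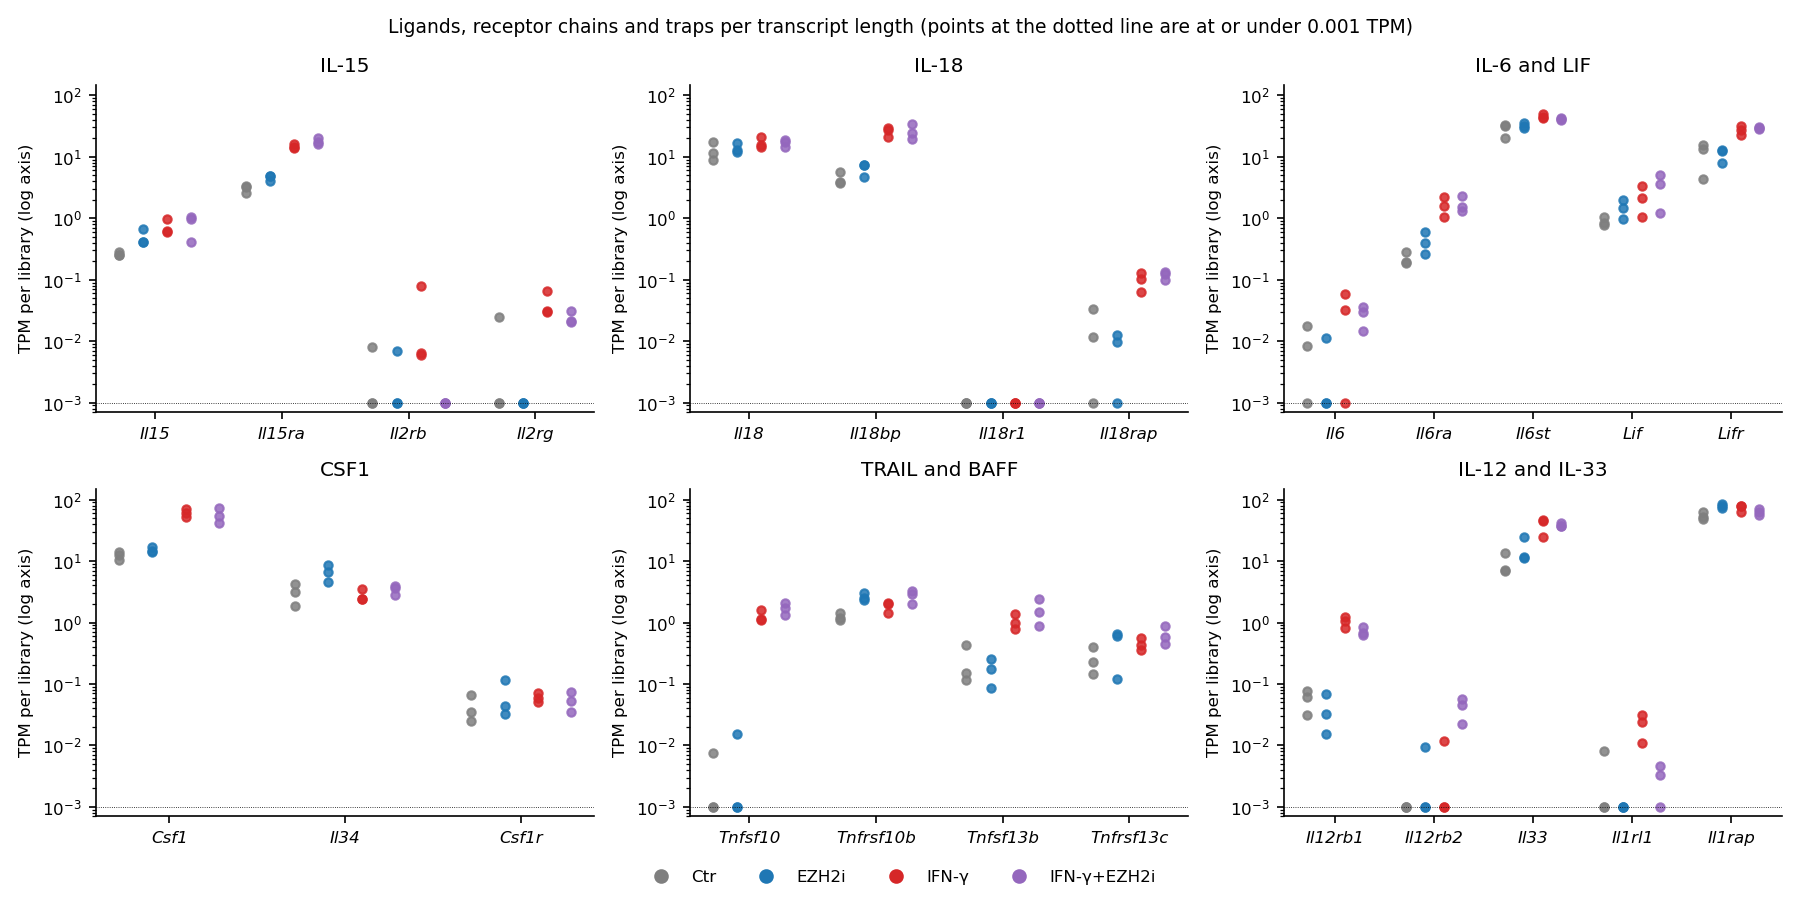
Deposited TPM per library (log axis; points on the dotted line are at or below 0.001 TPM) of ligands, receptor chains and the trap, in 6 systems, with Ctr in gray, EZH2i in blue, IFN-γ in red and IFN-γ+EZH2i in purple. Il18bp passes the level of Il18 with IFN-γ, Csf1 is far above Csf1r in every library, and Il12rb1 is measured with hardly any Il12rb2.

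The genes most like each of the 9 were taken as those with the highest Pearson r of log2(CPM + 1) over the 12 libraries, among 14673 other genes with a mean of at least 1 CPM. The libraries fall into those with and without IFN-γ, which all these values share, so r is a description. Csf1 was nearest to Batf2 and Apol6 (r = 1.00 each), Il18bp to Tubb3 and Lgals3bp (r = 1.00 each) and Tnfsf10 to Cxcl10, a chemokine gene, and Gm4841 (r = 1.00 each). Il15ra was nearest to Nmi and Ifi203 (r = 0.99 each), and Il12rb1 to Stat2 and Gm37843 (r = 0.99 each). Tnfsf13b was nearest to Cd74, the invariant chain of MHC class II, and Ifi211 (r = 0.98 each). The nearest genes were Aldh1a3 (r = 0.99) and Pwwp2b (0.98) for Il33, Plcd1 (0.99) and Npnt (0.96) for Lif, and Slc8a1 (0.93) and Rnf125 (0.92) for Il15.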

How the data were processed

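RNA was sequenced from 12 libraries of primary mouse OPCs, 3 for each of 4 groups, and groups and replicate numbers were taken from the labels. According to the methods, the authors trimmed reads and ran Salmon (0.8.2 in the submitters' processing notes), which gave the deposited estimated count and TPM of each transcript; the methods name an Ensembl annotation, and the processing notes the builds mm10 and GRCm38. According to the methods, the libraries were made from total RNA with a stranded kit. The strand setting of the quantification is not given in the sources used here. The authors also deposited 2 tables of DESeq2 fold changes and p-values for EZH2i, which were not used. Estimated counts and TPM were summed per gene over the 141862 transcripts, all of which matched the GENCODE annotation of GRCm38, and estimated counts were rounded.

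Counts were scaled with TMM, filtered with filterByExpr and tested with edgeR 4.0.16 in R 4.3.3 (quasi-likelihood, 1 fit of 12 libraries, group as the only term, Benjamini-Hochberg adjustment, threshold 0.05). The fit was tested on simulated data. Promoter sequences are from RefSeq (GRCm38.p6). Annotated starts within 100 bases of the next formed 1 start. Alternatives were DESeq2 1.42.0, RLE scaling, no filter, at least 10 counts in every library, a block for replicate number, length-scaled TPM, only the libraries compared, and each library left out. The 10 genes, the lists and the tests were chosen with earlier results of these data known. Named are the 10 genes, called genes of the lists, defining markers and the 2 most similar genes of each; uncalled direct partners were named beyond this rule, after their values were seen.

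Same-numbered libraries were taken as pairs where the deviations from their group means all correlated above 0.1 in log-CPM with a prior count of 2. These lay between 0.493 and 0.642 in the comparisons without Ctr, but fell to 0.0467 and 0.0854 in those with Ctr (0.114 and 0.110 in log2(CPM + 1)), so the numbers were taken to pair only the former. Replicates of a group differed by a chi-square of 31.3 to 181 per gene, more than sampling noise allows, so each was counted as a library of its own. Library totals differed up to 3.82 times, and genes with few counts are measured least precisely in Ctr replicate 2.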

Additional observations from a re-analysis of the deposited data

How the results depend on the processing

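With at least 10 counts required in every library, only 5 of the 9 genes could be tested. Of these, 4 were called with IFN-γ (Csf1, Il15ra, Il18bp and Il33) in place of 7 in both settings. Of the 14864 genes tested then, 910 were called higher in IFN-γ versus Ctr and 781 in IFN-γ+EZH2i versus EZH2i. Leaving out each library in turn gave 6 to 7 calls in each comparison of IFN-γ and 0 in the comparisons of EZH2i and the interaction; the call lost each time was Il33. The replicate block gave 8 calls in both comparisons of IFN-γ and 0 in the others. Lif was the call added (edgeR adjusted p = 0.00276 in IFN-γ versus Ctr, where the numbers do not pair by the rule used). Of the 18995 genes, the block called 2360 higher in IFN-γ versus Ctr and 2084 in IFN-γ+EZH2i versus EZH2i. The block with only the 6 libraries compared, added after seeing the data, gave 3 calls in IFN-γ+EZH2i versus IFN-γ, at 9.55% of all genes. The block changed no other call of the 9 genes. Among the other cytokine genes, the block in comparisons with Ctr also called Kitl higher with EZH2i (edgeR adjusted p = 0.0450), and Il16 higher and Il17d lower with IFN-γ (0.0428 and 0.000352); among the partners it called Tnfrsf23 higher with IFN-γ (0.0454). No called value changed sign under any alternative.

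Signs changed only among values that were not called. With length-scaled TPM, Tnfsf10 was at 1.00 in EZH2i versus Ctr, and the interaction was at 0.28 for Lif, 0.01 for Csf1 and -0.46 for Tnfsf10 (all log2). When single libraries were left out, the ranges in EZH2i versus Ctr were -0.15 to 0.97 for Il33, -2.74 to 2.53 for Tnfsf10 and -0.82 to 0.13 for Tnfsf13b. In IFN-γ+EZH2i versus IFN-γ they were -0.33 to 0.83 for Il15, -0.12 to 0.15 for Il18bp, -0.09 to 0.31 for Il33 and -0.07 to 0.09 for Csf1. In the interaction they were -0.80 to 0.37 for Il15, -0.13 to 0.24 for Il15ra, -0.23 to 0.04 for Il18bp, -0.85 to 0.27 for Il33, -0.47 to 0.22 for Lif, -0.11 to 0.04 for Csf1 and -1.95 to 3.32 for Tnfsf10. The cause was not tested. By TPM in place of CPM, 7 of the 10 genes kept the order of the 4 group means. Il6, Il15 and the levels of Tnfsf10, Tnfsf13b and Il12rb1 without IFN-γ are limited by depth, at no more than 41 counts per library without IFN-γ.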
